A study of Homo sapiens with 6 samples.

Results

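The replication-dependent histone genes were taken as every gene name in the authors' table of loci, split at commas, that begins with HIST1H, HIST2H, HIST3H or HIST4H. This rule gave 72 genes among the 24257 genes measured: 6 of the linker histone H1, 17 of H2A, 20 of H2B, 14 of H3 and 15 of H4. Of these, 69 are coding genes and 3 are pseudogenes (HIST1H2APS1, HIST2H2BA and HIST2H2BC). In the annotation of the human genome build hg19, 56 of them lie in the HIST1 cluster on chromosome 6, 12 carry HIST2 names and 3 carry HIST3 names on chromosome 1, and HIST4H4 lies on chromosome 12.

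The RNA came from HEK293 cells, a human embryonic kidney cell line, grown at 37°C and 5% CO2 in DMEM with 10% FBS. In the Control group, 3 libraries were made from untreated cells, and in the HeatShock group, 3 libraries were made from cells that were moved to a tube at passaging and kept there at 45°C, in a bath of water, over 30 minutes. The labels do not say whether control cells also spent time in a tube. All 6 libraries were made from total RNA that was depleted of ribosomal RNA with ribominus and then prepared with a Truseq RNA kit, and the labels do not say whether RNA with a poly(A) tail was selected as well. Nothing in the labels ties a library to a separate culture beyond its number, so the p-values measure the spread between these libraries.

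Replication-dependent histone mRNAs encode the bulk of the protein that packages new DNA. H2A, H2B, H3 and H4 form the core particle around which DNA is wound, and H1 binds the DNA that links the particles. The genes have many near-identical copies, mostly lack introns, and are expressed chiefly in S phase. Their mRNAs end without a poly(A) tail: a short stem-loop after the stop codon is bound by SLBP, the U7 small nuclear ribonucleoprotein guides a cut just after it, and the same stem-loop takes part in the rapid decay of the message when DNA synthesis stops. Replication-independent variants such as H2AFZ and H3F3B are expressed through the cell cycle from mRNAs with ordinary poly(A) tails.

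The stem-loop is shown for 1 or 2 genes of each type because it is what sets these mRNAs apart from others, whatever their level. Each sequence was read from the strand of the gene in GRCh37, 5′ to 3′ as DNA, with the 16 bases of the stem-loop in capitals and 5 bases on each side in lower case.
HIST1H1C (H1, chr6:26055972-26055987, minus strand): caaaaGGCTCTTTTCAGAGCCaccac
HIST1H2AH (H2A, chr6:27115325-27115340, plus strand): acaaaGGCTCTTTTCAGAGCCattct
HIST1H2BC (H2B, chr6:26123700-26123715, minus strand): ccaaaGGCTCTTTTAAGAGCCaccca
HIST2H2BE (H2B, chr1:149857738-149857753, minus strand): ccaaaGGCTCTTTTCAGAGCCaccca
HIST2H3A (H3, chr1:149824667-149824682, plus strand): caaaaGGCTCTTTTCAGAGCCaccca
HIST1H3C (H3, chr6:26046077-26046092, plus strand): gaaaaGGCTCTTTTCAGAGCCactca
HIST1H4C (H4, chr6:26104545-26104560, plus strand): ccaaaGGCCCTTTTCAGGGCCgctca
HIST1H4K (H4, chr6:27798956-27798971, minus strand): caaaaGGCCCTTTTTAGGGCCcccac

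The motif searched was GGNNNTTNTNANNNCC, with N for any base, and it was found on the gene's own strand for all 72 genes. In the 66 genes with a coding sequence in GENCODE, it began 25 to 70 bases after the last coding base, a distance that includes the stop codon. In 64 of the 72 genes it ended within 10 bases of the end of at least 1 annotated transcript of the gene. Among 34091 other coding transcripts, 0.299% held the motif between 100 bases before and 100 bases after their end, and 0.199% held it on the opposite strand of that window. Among the 72 coding transcripts of the histone genes, 94.4% held it in that window. There were 11 different 16-base sequences, and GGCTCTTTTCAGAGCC was found in 40 genes. All 15 H4 genes had a stem that begins with GGCCC and ends with GGGCC, a combination found in 0 of the genes of the other 4 types. Genes at both ends of the range of levels carry the same 16 bases: HIST2H3A had a mean of 154 FPKM and HIST1H3C a mean of 0.0833 FPKM.

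Levels are given as FPKM, fragments per length of transcript and per mapped fragment of the library, which Cufflinks assigned to each transcript of each library and which were summed over the transcripts of a gene. With a mean of at least 1 FPKM over the 6 libraries, 51 of the 72 genes were counted as measured well enough to test: 3 of H1, 15 of H2A, 14 of H2B, 8 of H3 and 11 of H4. In 15 genes the mean was at least 100 FPKM, and 18 genes had at least 10 FPKM in every library. In contrast, 17 genes stayed under 1 FPKM in every library, and HIST1H3D was listed at 0 in all 6. A listed 0 can be a failed estimate in these files, since TYMS and H3F3A, genes that dividing cells use, were also listed at 0 in all 6 libraries.

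Olfactory receptor genes, which like histone genes lie mostly in a single exon, were taken to give a level for genes that are thought to be mostly silent. The 95th percentile of 360 such genes ran from 0.221 to 0.636 FPKM over the libraries. Of the 72 histone genes, 40 were above this percentile in every library and 8 in no library. The 8 were spread over H1 (1), H2A (2), H2B (1) and H3 (4). Of the genes known for use in testis, HIST1H1T, HIST1H2BA and HIST1H2AA were low, with means of 0.259, 0.168 and 0.0594 FPKM. HIST3H3, the testis form of H3, had a mean of 1.73 FPKM, with 2.27, 2.09 and 2.18 FPKM for control and 0.628, 0 and 3.22 FPKM for heat shock.

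**Figure D1:**
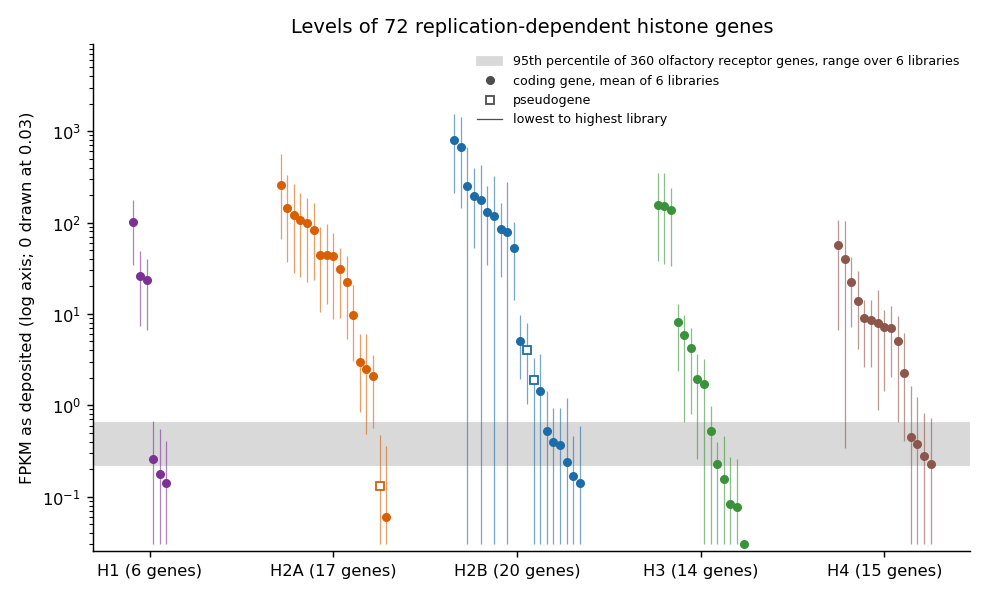
Mean FPKM of each of the 72 histone genes over 6 libraries (points, log axis), by histone type, with a line from the lowest to the highest library. The grey band marks the 95th percentile of 360 olfactory receptor genes in each library (0.221 to 0.636 FPKM). H2B and H2A reach the highest levels, and every type has members whose mean lies within or below the band.

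The deposited levels of abundant genes moved together from library to library. A median-of-ratios size factor was computed from the 984 genes that passed 10 FPKM in each library, and is called the common factor here. Its values were 0.938, 0.434 and 0.956 for the controls (replicates 1, 2 and 3) and 2.13, 2.31 and 0.487 for the heat shock libraries in the same order. Transcripts without a strand numbered 141632, 194489 and 45600 among controls and 17304, 30334 and 151889 among heat shock libraries, and the relative depth of the libraries spanned 1 to 2.02. Because of this, each comparison is given for FPKM as deposited and for FPKM divided by the common factor, called scaled FPKM. Over the 18 abundant histone genes, the highest library was 5.16 to 9.88 times the lowest as deposited, with heat shock replicate 1 highest and control replicate 2 lowest in 18 of 18. After scaling it was 1.59 to 2.36 times the lowest, with control replicate 1 highest in 14 of 18 and control replicate 2 lowest in 14 of 18.

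Of 7 markers of HEK293 cells, VIM was at 85.3 to 929 FPKM, KRT18 at 7.86 to 34.5 FPKM and IGF2BP1 at 3.87 to 18.0 FPKM. KRT8 was at 1.77 to 16.6 FPKM, NEFM at 1.44 to 8.92 FPKM and LIN28B at 1.43 to 8.64 FPKM. PAX2 was lowest, at 0.320 to 4.26 FPKM, and its mean of 1.78 FPKM was below that of COL1A1 (3.62 FPKM), a marker of other cells. Of 5 markers of other cells, PTPRC, HBB and ALB were at most 0.344 FPKM in any library, COL1A1 was at 3.23 to 4.16 FPKM and CDH5 at 0.0210 to 2.81 FPKM. Among 12 heat shock genes, 11 were tested and 11 of 11 were higher in the mean after heat shock on both scales, but 0 of 11 were called. Over all genes tested, 9507 of 13030 were higher as deposited and 3646 of 13871 scaled. DNAJB1, a co-chaperone of HSP70, went from 7.32, 4.84 and 9.18 FPKM in the controls to 121, 116 and 34.0 FPKM after heat shock (log2 difference 3.33 ± 0.84 (SE), adjusted p = 0.711, limma).

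H2B carried most of the histone signal in every library. The summed FPKM of the 72 genes was 5734, 1246 and 4383 for the controls and 10507, 11088 and 1679 for the heat shock libraries. These sums include assembled transcripts that Cufflinks grouped with several H2B genes. H2B made up 62.6% to 74.5% of the sum over the 6 libraries, H2A 14.4% to 21.1%, H3 6.41% to 9.35%, H1 2.08% to 4.20% and H4 2.69% to 3.74%. The highest H2B share, in heat shock replicate 2, rested on the grouped transcripts. H2B held 8258 of 11088 FPKM with them there and 3634 of 6465 FPKM without. FPKM is divided by length, so these shares compare levels per length. The order H2B, H2A, H3 held in every library, whereas H1 and H4 exchanged places between libraries.

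The groups overlapped in the summed level of every type. The mean sum was 3787 ± 2303 FPKM (SD, n = 3) for control and 7758 ± 5273 FPKM for heat shock, a log2 ratio of 1.03, and heat shock replicate 3 was below control replicates 1 and 3. Scaled, the sum was 6112, 2867 and 4583 among controls and 4931, 4790 and 3450 among heat shock libraries, with means of 4521 ± 1623 and 4390 ± 817 and a log2 ratio of -0.04. This ratio became 0.24 without control replicate 1, 0.10 without heat shock replicate 3 and -0.28 without control replicate 2. The log2 ratios of the scaled sums were -0.01 for H2B, -0.05 for H4, -0.06 for H2A, -0.11 for H3 and -0.47 for H1. H1 was 150 ± 40.1 scaled FPKM for control and 109 ± 13.0 for heat shock, and heat shock replicate 1 (124) was above control replicate 2 (120). In RNA pooled from a culture, fewer cells in S phase and less histone mRNA per cell cannot be told apart.

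The sums were also compared among libraries with like numbers of transcripts that lack a strand. Among the 3 libraries with the fewest, control replicate 3 and heat shock replicates 1 and 2, the log2 ratio of the total was 1.30 as deposited and 0.085 scaled. Among the 3 with the most, control replicates 1 and 2 and heat shock replicate 3, it was -1.06 as deposited and -0.38 scaled. The direction as deposited was thus opposite in these sets of libraries. For H1 the scaled ratio was -0.27 and -0.61 in the same order, and for H2B it was 0.13 and -0.45. With 1 or 2 libraries a group in each set, these ratios have no test.

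**Figure D2:**
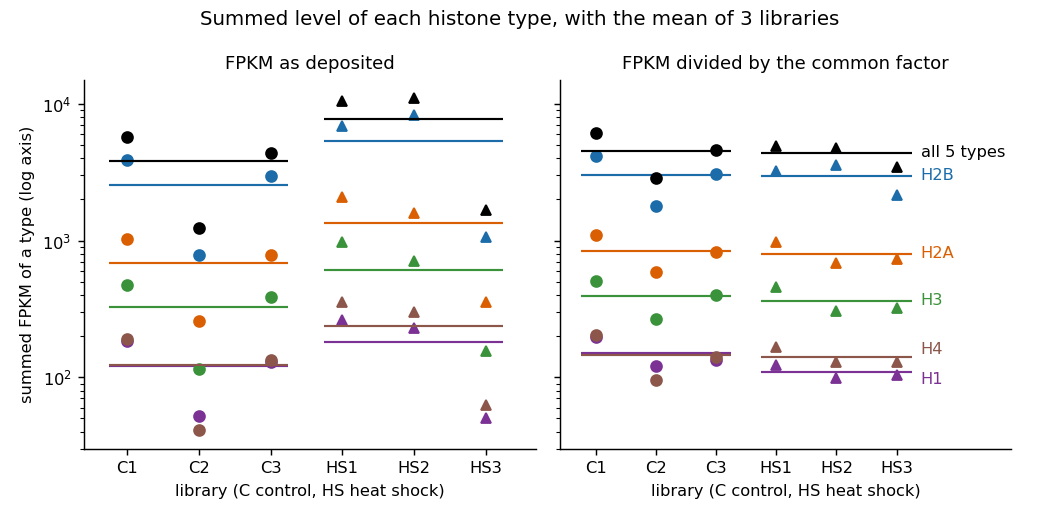
Summed FPKM of each histone type in each library (log axis), as deposited (left) and divided by the common factor (right), with control libraries as circles, heat shock libraries as triangles and the mean of 3 libraries as a line. As deposited, heat shock replicate 3 lies near control replicate 2, far below the other heat shock libraries; scaled, the group means of the total are 4521 and 4390.

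The joined transcripts concern H2B alone. Cufflinks listed 10 assembled transcripts of 2 exons that it grouped with several histone genes, all of them H2B genes. These are called joined here, and were listed in control replicates 1 and 3 and heat shock replicates 1 and 2. None was listed in control replicate 2 or heat shock replicate 3. In 8 of the 10, each exon lay on a different H2B gene, so that the transcript of 479 to 637 bases ran from the start of one copy into the end of another across 14048 to 74312 bases of intervening DNA. Around the break, 51 to 59 of 60 bases were the same in both copies. The remaining 2 had 1 exon on an H2B gene and matched at 16 and 13 of 60 bases.

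The bases at 3 of these breaks show how alike the copies are there. Each line gives 30 bases of a gene in GRCh37, read on the gene's own strand and centred on the break, and capitals mark the bases that differ between the 2 copies of a pair.
HIST2H2BF (chr1:149783624-149783653, minus strand): ggagaggcGtcccgcctggcgcactacaac
HIST2H2BE (chr1:149857936-149857965, minus strand): ggagaggcTtcccgcctggcgcactacaac
HIST1H2BD (chr6:26158557-26158586, plus strand): ggcatctcTtccaaggcAatgggGatcatg
HIST1H2BF (chr6:26199946-26199975, plus strand): ggcatctcAtccaaggcCatgggCatcatg
HIST1H2BJ (chr6:27100341-27100370, minus strand): ggcatTtcGtcCaaggccatgggCatcatg
HIST1H2BK (chr6:27114389-27114418, minus strand): ggcatCtcCtcTaaggccatgggAatcatg

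The break between HIST2H2BF and HIST2H2BE was at the same bases in control replicates 1 and 3 and at other bases in heat shock replicate 2, with 74312 bases between the exons in all 3, inside or beside a stretch of 140 bases that both copies share. The break between HIST1H2BD and HIST1H2BF was at the same bases in control replicate 3 and heat shock replicate 1 and at other bases in heat shock replicate 2, with 41389 bases between the exons in all 3. Joined transcripts held 882 FPKM in control replicate 1, 931 FPKM in control replicate 3, 1922 FPKM in heat shock replicate 1 and 4624 FPKM in heat shock replicate 2. The 4624 FPKM include 869 FPKM of a transcript with only 1 exon on an H2B gene. The most abundant joined transcript, from HIST2H2BE into HIST2H2BF in heat shock replicate 2, was listed at 3237 FPKM.

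Several abundant H2B genes were listed at 0 in a library that listed a joined transcript of the same gene. HIST1H2BK had 342, 84.6 and 263 FPKM in the controls and 679, 0 and 120 FPKM after heat shock, and the library at 0 listed 218 FPKM in a transcript joined with HIST1H2BJ and 869 FPKM in a transcript whose other exon lay on no H2B gene. HIST1H2BD had 427, 115 and 82.7 FPKM in the controls and 0, 329 and 116 FPKM after heat shock, and the library at 0 listed 1082 FPKM in a transcript joined with HIST1H2BF. HIST2H2BE had 110, 59.5 and 124 FPKM in the controls and 327, 0 and 84.2 FPKM after heat shock, and the library at 0 listed the transcript of 3237 FPKM. A low fold change of these 3 genes therefore came with a joined transcript in the same library. The sums that follow count the transcript of 869 FPKM as joined. Summed with the joined transcripts and scaled, HIST1H2BJ and HIST1H2BK had 442 ± 131 (SD, n = 3) for control and 508 ± 85.2 for heat shock, in place of 442 ± 131 and 351 ± 199 without them. HIST1H2BD, HIST1H2BE and HIST1H2BF had 460 ± 123 and 413 ± 86.5 with them. For HIST2H2BC, HIST2H2BE and HIST2H2BF the values with them were 1349 ± 682 and 1310 ± 593, where control replicate 2 (627) and heat shock replicate 3 (734), which list no joined transcript, were lowest.

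**Figure D3:**
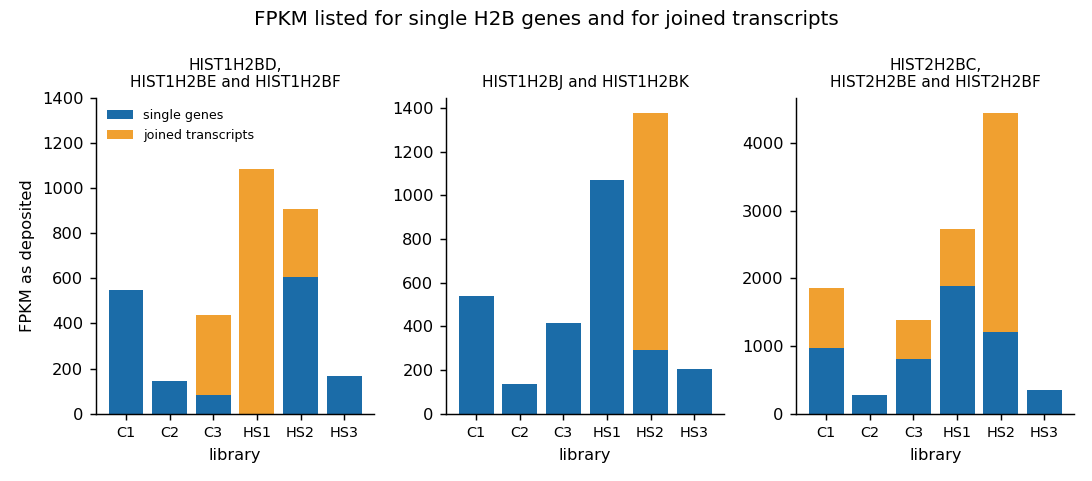
FPKM as deposited in each library for 3 groups of H2B genes, with the FPKM listed for single genes in blue and for joined transcripts, as grouped by Cufflinks, in orange. In the HIST1H2BJ group, the orange of heat shock replicate 2 includes 869 FPKM of a transcript with only 1 exon on an H2B gene. Joined transcripts appear in control replicates 1 and 3 (C1, C3) and heat shock replicates 1 and 2 (HS1, HS2) and in none of C2 and HS3; in the HIST1H2BD group they hold 99.9% of the FPKM of HS1.

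Among the H2B genes listed above 0 in every library, levels were led by copies of both large clusters. HIST2H2BF had 865, 212 and 677 FPKM in the controls and 1561, 1202 and 270 FPKM after heat shock. HIST1H2BC had 635, 143 and 491 FPKM in the controls and 1416, 1077 and 223 FPKM after heat shock. HIST1H2BJ had 199, 52.2 and 150 FPKM in the controls and 393, 291 and 86.5 FPKM after heat shock. In each, heat shock replicates 1 and 2 were above all controls and heat shock replicate 3 was below control replicates 1 and 3. Scaled, HIST2H2BF had 706 ± 217 for control and 602 ± 114 for heat shock (SD, n = 3), HIST1H2BC 507 ± 173 and 530 ± 117, and HIST1H2BJ 163 ± 46.4 and 163 ± 32.3, differences smaller than the spread within the groups. These values leave out joined transcripts. On HIST2H2BF, they held 882 and 574 FPKM in control replicates 1 and 3 and 3237 FPKM in heat shock replicate 2. A joined transcript of 218 FPKM lay on HIST1H2BJ in heat shock replicate 2.

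H2B also has longer annotated forms that run past the stem-loop. HIST2H2BF and HIST1H2BD each have a spliced form of 2 exons, of 999 and 813 bases, in which the stem-loop lies in the intron, and both forms were listed at 0 in all 6 libraries, while the forms of 1 exon carried the FPKM above. For HIST1H2BK the annotation holds a spliced form of 839 bases alone, also with the stem-loop in the intron, and no form that keeps it. HIST2H2BE is annotated with 2223 bases and 1 exon, and its stem-loop lies 1728 bases before the annotated end. Of 74 annotated forms of the 72 genes, 69 hold the stem-loop in an exon, 4 hold it in an intron and 1, of the pseudogene HIST1H2APS1, ends before it.

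In H2A, 15 of 17 genes were tested and the 4 most abundant were HIST1H2AH, HIST1H2AC, HIST1H2AL and HIST2H2AA3. HIST1H2AH had 251, 66.4 and 220 FPKM in the controls and 556, 391 and 77.0 FPKM after heat shock. HIST1H2AC had 140, 37.3 and 95.6 FPKM in the controls and 331, 209 and 51.4 FPKM after heat shock. For both, heat shock replicate 3 overlapped the controls. HIST1H2AL had 143, 28.1 and 77.7 FPKM in the controls and 261, 181 and 43.4 FPKM after heat shock. HIST2H2AA3 had 99.0, 25.5 and 76.5 FPKM in the controls and 210, 183 and 38.1 FPKM after heat shock, and its neighbour HIST2H2AA4 has an identical transcript of 534 bases, and reads cannot be told apart between them. Scaled, the means of the 4 genes were 217 ± 58.8, 112 ± 33.4, 99.6 ± 46.8 and 81.4 ± 23.4 for control, and 196 ± 56.5, 117 ± 34.0, 96.7 ± 23.2 and 85.3 ± 11.5 for heat shock.

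The most abundant H3 genes were a pair of identical copies. HIST2H3A and HIST2H3C have the same transcript of 507 bases, and their values were the same in 4 libraries. HIST2H3A had 146, 38.4 and 116 FPKM in the controls and 349, 233 and 42.9 FPKM after heat shock. HIST2H3C had 143, 35.6 and 116 FPKM in the controls and 349, 233 and 42.9 FPKM after heat shock. What is listed for each is therefore a share of the fragments of both copies. HIST1H3H, the third, had 161, 33.5 and 126 FPKM in the controls and 240, 212 and 56.1 FPKM after heat shock. HIST1H3J, the fourth, was far lower, with 9.81, 2.36 and 7.42 FPKM in the controls and 13.0, 12.3 and 4.51 FPKM after heat shock. Between the third and the fourth H3 gene the mean fell from 138 to 8.23 FPKM.

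H4 was divided among more genes at lower levels, and its top pair again shares reads. The transcripts of HIST1H4J and HIST1H4K are 98.9% identical. HIST1H4K had 108, 6.66 and 27.3 FPKM in the controls and 103, 79.1 and 13.0 FPKM after heat shock. HIST1H4J had 0.343, 8.01 and 29.5 FPKM in the controls and 104, 83.2 and 13.5 FPKM after heat shock. The 2 copies were thus near each other in 5 libraries, and in control replicate 1 nearly all of their FPKM was listed for HIST1H4K. Summed, they had 108, 14.7 and 56.8 FPKM in the controls and 207, 162 and 26.5 FPKM after heat shock, and the scaled sums were 69.5 ± 41.7 and 73.9 ± 21.5 (SD, n = 3).

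HIST1H4C, an H4 gene whose coding sequence is at most 83.8% identical to that of another H4 gene, varied least of the named H4 genes once scaled. It had 18.6, 7.26 and 17.8 FPKM in the controls and 39.6, 41.7 and 9.55 FPKM after heat shock, and 18.4 ± 1.58 and 18.7 ± 0.81 scaled. HIST1H4H had 13.2, 4.13 and 14.4 FPKM in the controls and 29.5, 16.8 and 5.61 FPKM after heat shock. HIST2H4A and HIST2H4B are identical over 396 bases and had means of 8.56 and 8.94 FPKM.

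H1 was carried by 3 of its 6 genes. HIST1H1C had 127, 33.9 and 79.1 FPKM in the controls and 175, 158 and 35.7 FPKM after heat shock. HIST1H1E had 27.4, 8.24 and 28.5 FPKM in the controls and 48.5, 37.5 and 7.35 FPKM after heat shock. HIST1H1D had 28.7, 9.18 and 20.8 FPKM in the controls and 39.6, 34.6 and 6.73 FPKM after heat shock. As deposited, the groups of all 3 genes overlapped. Scaled, HIST1H1D had 30.6, 21.1 and 21.8 among controls and 18.6, 15.0 and 13.8 among heat shock libraries, so that every heat shock library lay below every control. HIST1H1C and HIST1H1E still overlapped when scaled, at 98.7 ± 31.8 and 74.6 ± 6.95 for HIST1H1C and 26.0 ± 6.08 and 18.0 ± 4.14 for HIST1H1E. The 6 H1 genes are the least alike of any type, with a median identity of 68.6% between coding sequences, against 89.6% in H2B.

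Across all 51 tested genes, 0 were called between heat shock and control, at an adjusted p under 0.05 and a change over 2-fold in limma on log2(FPKM + 1). Over the 13030 genes tested, 0.0153% were called higher and 0.00767% lower. The lowest adjusted p of a histone gene was 0.711 (limma, Benjamini-Hochberg adjustment over all genes). On the scaled values the count was also 0 of 51, with 0% of 13871 genes called and a lowest adjusted p of 0.911. At an unadjusted p under 0.05, 1 gene was higher (HIST1H4J) and 1 lower (HIST1H2BN), where 2.08% of all genes tested were higher and 1.64% lower. Scaled, 0 were higher and 2 lower (HIST1H1D and HIST1H2BN), where 0.678% and 2.46% of all genes were. These shares are near those of all genes.

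The direction of the median gene depended on the scale. The median log2 difference of the 51 genes was 0.64 as deposited, against 0.45 over all genes tested, and -0.15 scaled, against -0.24 over all genes. By type, the median was 0.35 for H1, 0.79 for H2A, 0.64 for H2B, 0.64 for H3 and 0.57 for H4 as deposited. Scaled, it was -0.50, -0.05, -0.19, -0.11 and -0.15 in the same order. When scaled, 34 of the 51 genes were above the median of all genes: 0 of 3 in H1, 14 of 15 in H2A, 8 of 14 in H2B, 6 of 8 in H3 and 6 of 11 in H4. As deposited, 36 of the 51 were, with 1 of 3 in H1 and 13 of 15 in H2A.

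Non-overlap of the groups was rare as well. As deposited, 0 of 51 genes had every heat shock library above every control and 1 had every one below (HIST1H2BN), where 3.7% and 2.26% of all genes did. Scaled, 0 lay above and 4 below (HIST1H1D, HIST2H2AB, HIST1H3A and HIST1H2BN), where 1.79% and 5.2% of all genes did. HIST2H2AB and HIST1H3A, chosen after their values were seen, are low, with means of 2.11 and 1.96 FPKM. HIST1H1D, of the linker histone, had a scaled log2 difference of -0.59 ± 0.21 (SE) with an adjusted p of 0.911 (limma).

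HIST1H2BN, the gene with the smallest unadjusted p, rests on few fragments. It had 3.67, 1.45 and 2.62 FPKM in the controls and 0, 0 and 0.843 FPKM after heat shock, with a log2 difference of -1.50 ± 0.50 (SE) and an adjusted p of 0.711 (limma). Its 95% interval from Cufflinks was 0.268 to 2.63 FPKM in control replicate 2 and 0 to 1.81 FPKM in heat shock replicate 3, which overlap. In heat shock replicate 1, a joined transcript of 2.91 FPKM lay on it. HIST1H4J had a log2 difference of 2.81 ± 1.14 (SE) as deposited and 1.99 ± 1.18 scaled, with adjusted p of 0.711 and 0.911 (limma), and the low value of control replicate 1 described above is part of both.

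**Figure D4:**
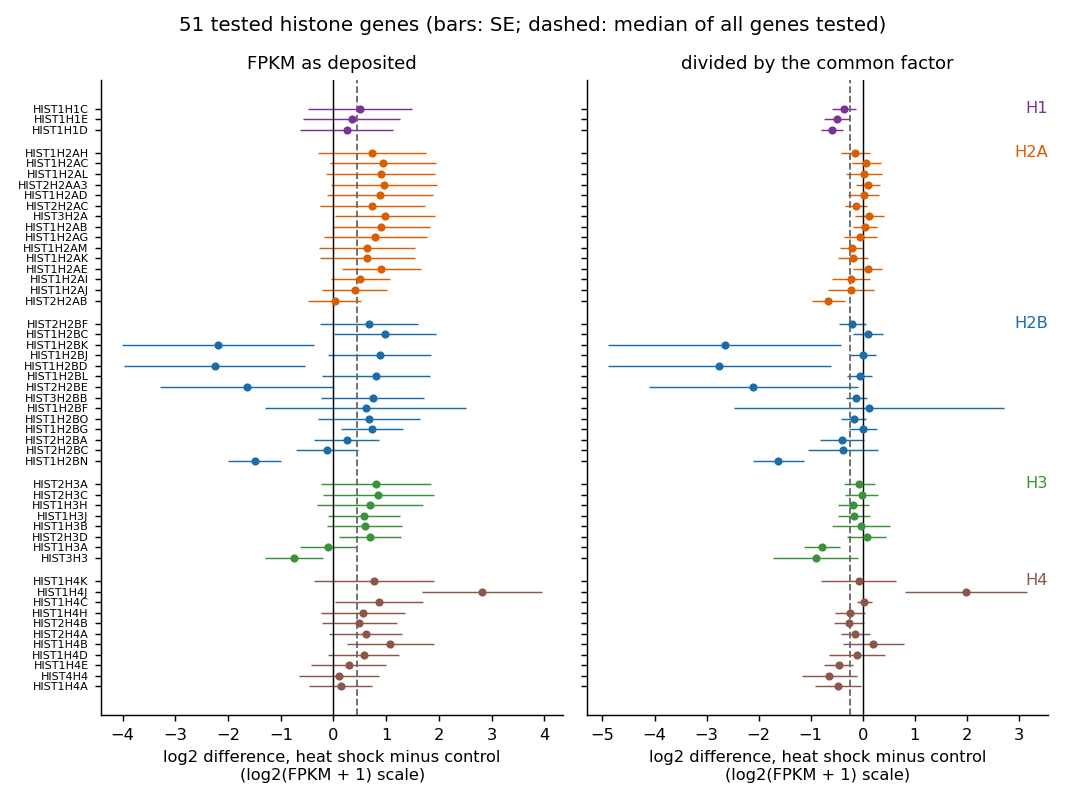
Log2 difference, heat shock minus control, of each of the 51 tested histone genes with its SE (bars), as deposited (left) and divided by the common factor (right), with each type in its own colour. The dashed line is the median of all genes tested, 0.45 and -0.24. Most genes lie close to the dashed line; the wide bars of HIST1H2BK, HIST1H2BD, HIST2H2BE and HIST1H2BF belong to genes listed at 0 in at least 1 library.

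With heat shock replicate 3 left out, an unadjusted p under 0.05 was reached by 14 histone genes that were higher and 2 that were lower, where 40.5% and 8.55% of 12880 genes were. In that fit 0 of 51 were called (lowest adjusted p 0.0755, limma). Few of the 12880 genes were called either, and their count stands with the alternatives at the end. The 14 included HIST1H2BC, HIST1H2AC, HIST2H3A and HIST1H4C, and their share was below that of all genes. The common factor of heat shock replicate 3, 0.487, was the second lowest of the 6, and its part in these counts was not tested beyond leaving the library out.

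The replication-independent variants gave a reference of another kind. Of 12 such genes, 9 were tested, 0 were called, and the median log2 difference was 0.69 as deposited and -0.12 scaled. When scaled, 9 of 9 were below 0, where only 3646 of 13871 genes tested were above 0 and the median of all genes was -0.24. H2AFZ, a variant of H2A used at promoters, had 364, 138 and 299 FPKM in the controls and 639, 749 and 157 FPKM after heat shock. H3F3B, which encodes the variant H3.3, had 51.7, 23.9 and 52.4 FPKM in the controls and 111, 122 and 26.7 FPKM after heat shock. The sum of the 72 histone genes was 10.8, 5.86 and 9.70 times the sum of the variants in the controls and 11.2, 10.1 and 7.21 times after heat shock. H3F3A, listed at 0 in all 6 libraries, adds nothing to the sum of the variants, so the ratio may be too high. The groups overlapped in this ratio, and its lowest values were those of control replicate 2 and heat shock replicate 3, which had 194489 and 151889 transcripts without a strand and listed no joined transcript.

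Genes that make or handle histone mRNA and protein were also compared. Of 19 factors of histone mRNA synthesis, processing and decay, 17 were tested and 0 were called, with a median log2 difference of 0.68 as deposited and -0.04 scaled. SLBP, which binds the stem-loop, had 18.4, 8.69 and 22.1 FPKM in the controls and 68.2, 49.5 and 9.39 FPKM after heat shock (scaled log2 difference 0.17 ± 0.22 (SE), adjusted p = 0.911, limma). The highest means in this list were those of SRRT (47.1 FPKM), CPSF3 (43.1 FPKM) and SLBP (29.4 FPKM), and the means of the first 2 rested on a single high library each, 139 FPKM in control replicate 3 for SRRT and 186 FPKM in heat shock replicate 1 for CPSF3.

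Of 16 histone chaperones, 16 were tested and 0 were called, with medians of 0.58 as deposited and -0.21 scaled. NASP, a chaperone of H1 and H3, had 61.4, 27.3 and 63.6 FPKM in the controls and 148, 140 and 27.4 FPKM after heat shock. NAP1L1 and SSRP1, the chaperones with the next highest means, had scaled log2 differences of 0.085 ± 0.12 and -0.28 ± 0.25 (SE). Of 10 genes of S phase, 9 were tested and 0 were called, with medians of 0.70 and -0.11. PCNA, the sliding clamp of DNA replication, had 124, 134 and 200 FPKM in the controls and 268, 292 and 54.5 FPKM after heat shock (scaled log2 difference -0.75 ± 0.30 (SE), adjusted p = 0.911, limma). TK1 and RRM2, enzymes of nucleotide supply, had scaled log2 differences of 0.25 ± 0.21 and -0.10 ± 0.12. As with the histone genes, no gene of these 3 lists differed between the groups beyond the threshold on either scale.

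In the authors' table of merged loci, which gives 1 pooled FPKM for each group, the 72 names fell on 70 loci, and 4 of these loci carried several histone names. Identical and near-identical copies stood out there too: 6 loci, those of HIST2H3A, HIST2H3C, HIST2H4A, HIST2H4B, HIST2H2AA3 and HIST1H4K, had a pooled value of 0 in both groups, although each had a mean above 8 FPKM in the assemblies of the single libraries. Ratios were taken over the 24 loci with at least 5 pooled FPKM for control and a single histone name found on no other locus. There, the pooled value for heat shock was 2.60 to 5.77 times that for control (median 3.88). The median ratio of the means of the libraries was 1.68 for the same genes. The locus of HIST1H2BN had a pooled value of 7.85 FPKM for control and 23.0 FPKM for heat shock, opposite in direction to its values in the libraries. The pooled values carry no spread over libraries, the scaling behind them is not given in the sources used here, and the cause of these differences was not tested.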

How the data were processed

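RNA of 3 control and 3 heat shocked samples of HEK293 cells was measured, grouped by the sample labels. The authors trimmed the reads (Trimmomatic 0.3.0), aligned them to hg19 (TopHat2), assembled each library (Cufflinks 2.0.2) and deposited an FPKM with a 95% interval for every transcript. The deposited table of merged loci (Cuffdiff) holds pooled FPKM, which were read as values, and the authors' own fold changes and p-values, which were not used. No read counts were given, so depth is known only in relative terms.

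A gene's FPKM is the sum, within a library, over its transcripts and those assembled with it. Tests were run on genes whose mean reached 1 FPKM, using limma 3.58.1 (R 4.3.3; lmFit, eBayes with a trend) on log2(FPKM + 1), a scale that understates the change of low genes, with Benjamini-Hochberg adjustment over all genes. The test was also tried on simulated data of 13030 genes, with 100 of them changed 8-fold and 100 others changed 32-fold. The noise was drawn separately for each gene and library, so shifts of whole libraries were not simulated. With the spread as deposited, it called 30% of genes changed 8-fold and 80% of genes changed 32-fold. With the spread after scaling, it called 55% and 79% in the same order. Changes of 8-fold were thus often not called. Sequences came from GRCh37 and GENCODE 44 mapped to it. Of 25 chromosomes, 24 ended within the reference lengths, and the mitochondrial chromosome did not.

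The genes named were the 4 most abundant of each type, every called gene, up to 3 in each direction with the smallest p and no overlap, and in each list those with the highest means. The genes and lists were chosen with earlier results of these data known. The alternatives tried were other pseudocounts, scalings, filters and forms of the fit, and leaving out each library. A term for the libraries with many strandless transcripts, sums without joined transcripts, and scaling combined with leaving out a library were added after the values were seen.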

Additional observations from a re-analysis of the deposited data

How the results depend on the processing

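The count of histone genes called was 0 under every alternative but the unadjusted p, which gave 2. The log2 ratio of the summed histone FPKM was 1.03 as deposited and ran from 0.62 to 1.51 with a library left out, and was 0.81 without joined transcripts, 0.45 with size factors over all genes, 0.066 as TPM and -0.04 scaled. The median log2 difference of the histone genes ran from 0.079 to 1.24 with a library left out, and from -0.42 (without control replicate 2) to 0.026 (without control replicate 1) when scaled. The cause of these moves was not tested.

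Genes called over all genes numbered 3, and 0 scaled, 0 with no minimum FPKM, 1 each with size factors over all genes, annotated transcripts alone and eBayes without a trend, 481 with an unadjusted p, and 0 to 16 with a library left out (0 without control replicate 2, 16 without heat shock replicate 3). With the replicate number as a block there were 17 (12 higher, 5 lower) and 0 histone genes. On FPKM as deposited, the deviations of same-numbered libraries correlated at 0.025, -0.33 and -0.38. Not every library correlated best with its own number. These deviations include shifts of whole libraries, so they cannot show whether the numbers pair the cultures.

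The sign of uncalled differences changed with the scale. Scaled, the log2 difference was below 0 for HIST2H2BF (-0.20), HIST1H2AH (-0.15), HIST2H3A (-0.065), HIST2H3C (-0.017), HIST1H3H (-0.18), HIST1H1C (-0.36), HIST1H4K (-0.073), HIST1H1E (-0.50), HIST1H1D (-0.59), HIST1H4H (-0.24) and HIST1H3J (-0.16). As TPM it was below 0 for HIST2H2BF (-0.072), HIST1H2AH (-0.020), HIST1H3H (-0.056), HIST1H1C (-0.24), HIST1H1E (-0.39), HIST1H1D (-0.49), HIST1H4H (-0.14) and HIST1H3J (-0.061). With size factors over all genes it was -0.081 for HIST1H1E and -0.18 for HIST1H1D, and with a term for the strandless libraries -0.19 and -0.18. With a library left out it ran from -4.17 to 0.54 for HIST1H2BK, -0.0053 to 1.24 for HIST1H1C, -0.18 to 1.73 for HIST1H4K, -0.20 to 1.14 for HIST1H1E and -0.19 to 1.02 for HIST1H1D. Depth limits the low genes most: a listed 0 has no count behind it from which an upper limit could be given.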
